A study of Rattus norvegicus with 10 samples.

Results

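The 10 genes described here encode sugar carriers of the kidney and close relatives of them. They are *Slc5a1*, *Slc5a2*, *Slc5a8* and *Slc5a10* of the sodium-coupled Slc5 family, and *Slc2a1*, *Slc2a2*, *Slc2a3*, *Slc2a4*, *Slc2a5* and *Slc2a9* of the facilitative Slc2 (GLUT) family. They were picked by gene symbol, under a rule that uses no measured value, at a time when earlier results of these data were known. They are 10 of the 32545 genes in the deposited expression table, and each symbol stands there once.

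Glucose that is filtered at the glomerulus is taken back in the proximal tubule. Sodium-coupled carriers in the brush border bring the sugar into the cell against its gradient, with SGLT2 (*Slc5a2*) working in the early tubule at high capacity and SGLT1 (*Slc5a1*) working further along at high affinity. Facilitative carriers, mainly GLUT2 (*Slc2a2*), let the sugar leave across the basolateral membrane, and related carriers move fructose, mannose, urate or small acids instead of glucose.

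RNA was taken from kidneys of 5 male and 5 female PCK rats (PCK/CrljCrl-Pkhd1pck/Crl), a model of autosomal recessive polycystic kidney disease, and each rat gave 1 poly(A) library. All 10 rats carried the *Pkhd1* mutation and none was described as treated, so sex is the factor that the labels give, and no rat without the mutation was sequenced among these samples. The series gives an age of 12 to 14 weeks and names the tissue as kidney, while the study's methods describe renal cortex and a slightly younger age. The rats were littermates from a pair of litters, and litter was not used here. The comparison made here is whether the RNA level of each carrier differed between the sexes.

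The libraries held 13912569 to 20285911 reads on genes in males (median 14387669) and 14963924 to 19556707 in females (median 15896262). Mitochondrial genes took 14.3% to 26.8% of these reads, and the library of female 2, at 26.8%, stood apart from the other 9, which reached at most 19.1%. The closest pair of libraries, male 1 and male 3, still differed well beyond counting noise (chi-square over degrees of freedom, 9.71), so no library was a copy of another. Levels are in FPKM, the number of fragments for each kilobase of gene, scaled by library, which can be set side by side between genes. The deposited scaling did not follow the reads on genes in proportion. A read over 1 kilobase stood for 0.0648 FPKM in male 1, with 14387669 reads, and 0.0565 FPKM in female 4, with 19556707. The label of kidney was met in all 10 libraries, where 8 markers of the proximal tubule summed to 2081 to 4520 FPKM, while the skeletal muscle genes *Ckm* and *Acta1* had at most 12 and 27 reads.

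By the mean over these kidneys SGLT2 was by far the most abundant of the 10 carriers, though not in male 5. *Slc5a1* was the carrier that differed between the sexes by the test over all genes. *Slc5a1* rose 1.69-fold, from 12.9 ± 1.79 FPKM (SD, n = 5) in males to 21.9 ± 5.68 FPKM (SD, n = 5) in females. The mean of all 4 Slc5 carriers was higher in females, and the mean of 4 of the 6 Slc2 carriers was lower in females, among them *Slc2a3* with 1 to 5 reads per library, although most of these differences were within the spread between rats. The fructose carrier *Slc2a5* had the largest fold change in the other direction among the tested carriers, with 11.6 ± 2.69 FPKM in males and 7.52 ± 2.31 FPKM in females (SD, n = 5 each), which did not pass the test over all genes.

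Of the 10 carriers, 9 had a mean of at least 0.1 FPKM and were tested with limma, and *Slc2a3* was below that level. By limma's adjusted p of at most 0.05, 1 of the 9 was called, in the direction of higher in females, where 2.40% of the 17631 genes tested were called, 1.26% as higher in females and 1.14% as lower. With a fold change of at least 2 asked for as well, 0 of the 9 were called, beside 1.32% of all genes (0.618% higher and 0.698% lower), and 4 of the 9 had an unadjusted limma p under 0.05, beside 15.7% of all genes. By the exact permutation test on single genes, whose smallest p with 5 against 5 rats is 0.00794, 3 of the 10 carriers had a p of at most 0.05. Of these, 2 were higher and 1 was lower in females, beside 14.8% of all genes tested (7.45% higher and 7.38% lower). The ranges of males and females did not overlap for 2 of the 10 carriers, 1 in each direction, beside 5.10% of all genes (2.50% higher and 2.60% lower). The median log2 fold change of the 9 tested carriers, females over males, was 0.34, beside -0.01 over all genes tested.

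**Figure D1:**
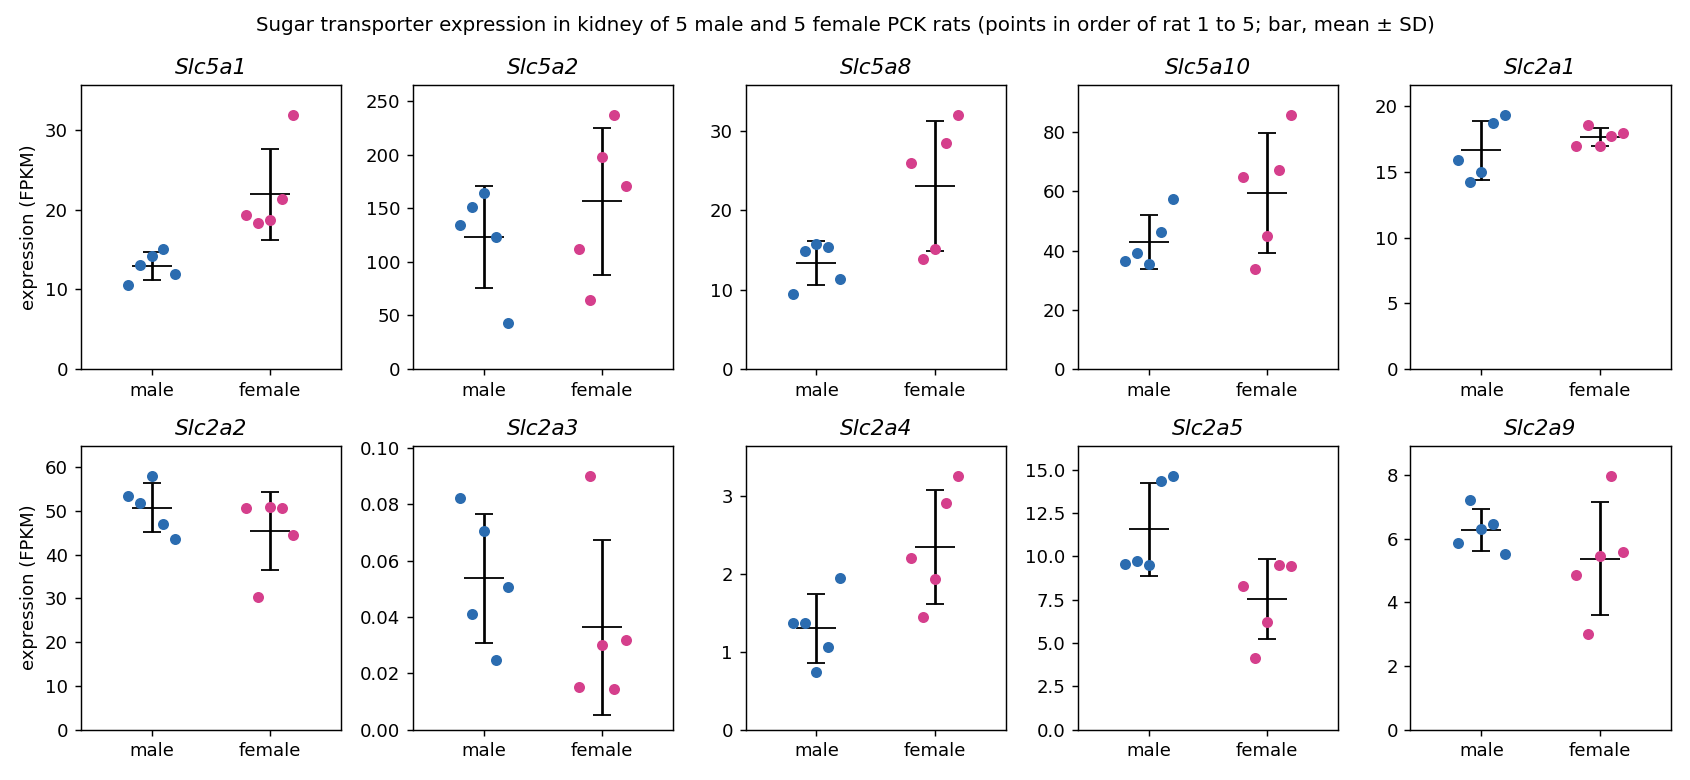
Expression of the 10 carriers in FPKM on a linear axis that starts at 0, with males in blue and females in pink; each point is 1 rat, in the order of rat 1 to rat 5, and the bar is the mean ± SD of 5 rats. The ranges of the sexes are apart for *Slc5a1* (higher in females) and, narrowly, for *Slc2a5* (lower in females), and they overlap for the other 8.

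The order of the levels was led by *Slc5a2*, at a mean of 139.8 FPKM over the 10 libraries, which placed it at rank 541 among all genes of the table. *Slc5a10* followed at 51.2 FPKM and *Slc2a2* at 48.1 FPKM. *Slc5a2* was above *Slc5a10* in 9 of 10 libraries, the exception being male 5. In male 5 *Slc2a2* (43.5 FPKM) was also just above *Slc5a2* (43.1 FPKM). *Slc5a10* was above *Slc2a2* in 5 of 10, of which 4 were females and 1 was a male. *Slc2a2* was above *Slc5a8* in 10 of 10 libraries. Next came *Slc5a8* at 18.2 FPKM, *Slc5a1* at 17.4 FPKM and *Slc2a1* at 17.1 FPKM, which did not differ beyond their spread, with *Slc5a8* above *Slc5a1* in 6 and *Slc5a1* above *Slc2a1* in 4 of 10 libraries. *Slc2a5* at 9.54 FPKM, *Slc2a9* at 5.82 FPKM and *Slc2a4* at 1.83 FPKM were each below the neighbour above them in 10 of 10 libraries. *Slc2a3*, at 0.0450 FPKM, was the only carrier whose range over all libraries was apart from that of its neighbour. By the means of each sex the order differed at 2 places. In males *Slc2a2* (50.8 FPKM) stood above *Slc5a10* (43.1 FPKM), and in females *Slc5a10* (59.3 FPKM) stood above *Slc2a2* (45.4 FPKM), in 4 of 5 rats each. In males *Slc2a1* was above *Slc5a8* and *Slc5a1* by its mean, at 16.6 FPKM, and in females it was below both, at 17.6 FPKM.

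*Slc5a1*, listed as ENSRNOG00000017775, lies on the minus strand of the rat genome build Rnor_6.0 at chr14:82909981-82975263. It encodes SGLT1, the high-affinity glucose and galactose carrier of the late proximal tubule and the intestine. Its level was 10.5, 13.1, 14.2, 15.1 and 11.9 FPKM in males 1 to 5, and 19.4, 18.3, 18.7, 21.4 and 31.9 FPKM in females 1 to 5. The lowest female was above the highest male, and female 5 stood well above the other 4 females. Between 480 and 1495 reads per library fell on the gene. The log2 fold change, females over males, was 0.73 ± 0.16 (SE; 95% confidence interval 0.39 to 1.08), with a limma adjusted p of 0.0353 over all genes and an exact permutation p of 0.00794, two-sided. In bulk tissue such as this, fewer cells of a type and less RNA per cell cannot be told apart, here and for every carrier below. The limma call was near its threshold: the adjusted p was 0.0624 in limma without the trend and 0.0621 after scaling by total reads, and it rose to 0.0536 to 0.0852 when male 1, 2, 3 or 5 or female 1 or 4 was left out. With ranges apart, the exact permutation p was the smallest possible with any 1 library left out (0.00794), which says nothing more about stability.

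The late proximal tubule, where SGLT1 is known to work, was followed with 6 marker genes. Their summed level ran from 1053 to 2022 FPKM in males, and in females from 1269 to 2565 FPKM. Of the 6, 1 was called, beside 2.40% of all genes. It was *Slc22a7*, an organic anion carrier that is known to differ between the sexes in rat kidney. *Slc22a7* rose from 2.47 ± 1.22 to 26.9 ± 11.8 FPKM (SD, n = 5 each, limma adjusted p = 0.000855). Of the 6, 4 had an unadjusted limma p under 0.05, beside 15.7% of all genes. The 3 beside *Slc22a7* were not called: *Slc7a13*, with a log2 fold change of 1.08, *Acy3*, with -0.46, and *Atp11a*, with -0.32. Taken relative to the mean log2 level of the 8 general proximal tubule markers in the same library, *Slc5a1* was still higher in females, by 0.64 on the log2 scale (exact permutation test, two-sided, p = 0.0397). Of those 8 markers, 1 was itself called higher in females, beside 1.26% of all genes. It was *Cubn*, a receptor for filtered proteins, with 49.98 ± 12.2 FPKM in males and 81.0 ± 11.9 FPKM in females (SD, n = 5 each, log2 fold change 0.72, limma adjusted p = 0.0467). *Aqp1* of the same list, a water channel, had a log2 fold change of -0.56 and was not called (limma adjusted p = 0.233). The part of cell make-up in the *Slc5a1* difference was not tested.

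*Slc5a2* (ENSRNOG00000020039, plus strand of Rnor_6.0 chr1:199682688-199688809) encodes SGLT2, the carrier that the gliflozin drugs block. Its level was 134, 151, 164, 123 and 43.1 FPKM in males 1 to 5, and 112, 64.2, 198, 237 and 171 FPKM in females 1 to 5. The groups overlapped widely, with male 5 the lowest of all rats and female 2 the lowest of the females. The means were 123 ± 47.4 FPKM in males and 156 ± 68.6 FPKM in females (SD, n = 5 each), with 1546 to 10021 reads per library. The log2 fold change was 0.34 ± 0.42 (SE; 95% confidence interval -0.58 to 1.26), with a limma adjusted p of 0.757 and an exact permutation p of 0.397, two-sided. Without male 5 the log2 fold change was -0.0035, while the difference in mean FPKM was still positive, at 13.2 (exact permutation p = 0.738).

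Male 5 and female 2 were also the lowest of their sex for the summed level of the 8 general proximal tubule markers. This sum was 3095, 3730, 4036, 3263 and 2081 FPKM in males 1 to 5, and 2789, 2358, 3792, 4520 and 3935 FPKM in females 1 to 5. Within each sex the rats stood in the same order for this sum as for *Slc5a2*, except that males 1 and 4 changed places, as did females 3 and 5. Taken relative to these markers, the mean of *Slc5a2* was 0.25 higher in females on the log2 scale, which did not pass the test (two-sided exact permutation p = 0.317). The 8 markers did not include any of the 10 carriers. On the late proximal tubule list the order was another, with 1981 FPKM in male 5, the second highest male, and the lowest sums in male 1 and female 2.

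**Figure D2:**
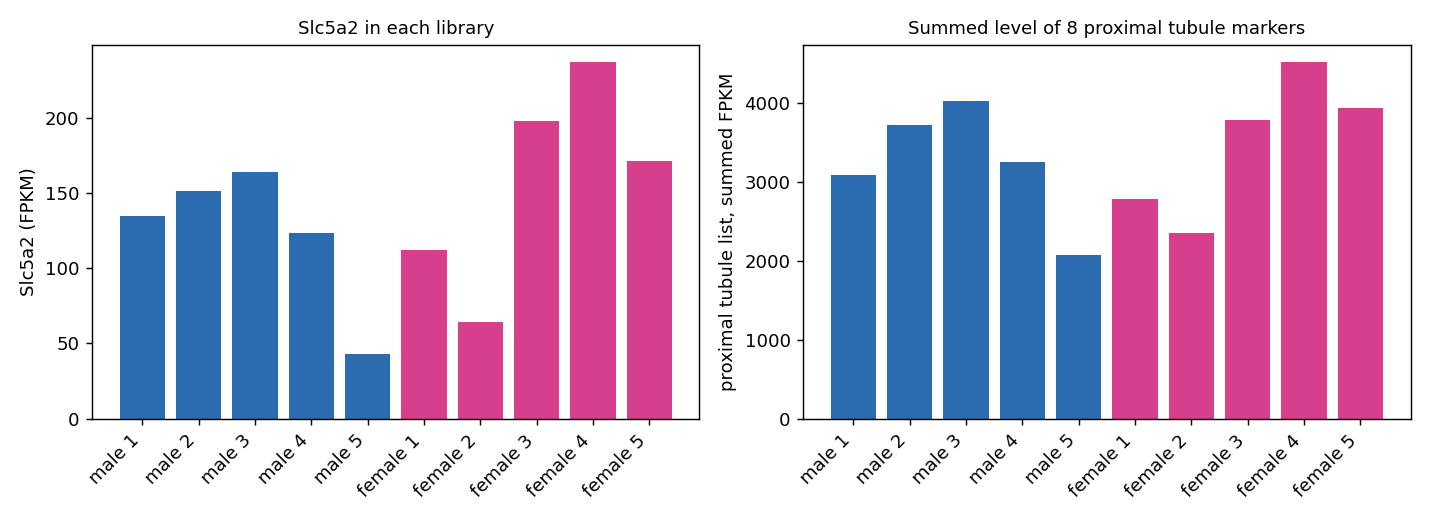
The left bars give *Slc5a2* in FPKM and the right bars the summed FPKM of 8 proximal tubule markers, 1 bar per rat on linear axes that start at 0, with males in blue and females in pink. Male 5 (43.1 and 2081 FPKM) and female 2 (64.2 and 2358 FPKM) are the lowest of their sex in both panels.

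*Slc5a10* (ENSRNOG00000002616, minus strand of Rnor_6.0 chr10:47949665-47997796) encodes SGLT5, a brush border carrier of mannose and fructose. Its level was 36.5, 39.3, 35.6, 46.4 and 57.6 FPKM in males 1 to 5, and 64.9, 33.9, 44.9, 67.2 and 85.7 FPKM in females 1 to 5. Females 1, 4 and 5 were above every male, and female 2 was below every male. The means were 43.1 ± 9.14 and 59.3 ± 20.3 FPKM (SD, n = 5 each), and the log2 fold change of 0.41 ± 0.23 (SE; 95% confidence interval -0.10 to 0.93) did not pass limma's test (adjusted p = 0.442; exact permutation p = 0.135). The exact permutation p was 0.0397 without female 2 and between 0.103 and 0.278 with any other library left out. Without female 5 the difference in means was 9.68 FPKM, against 16.3 FPKM with all rats. Male 5, the lowest rat for *Slc5a2*, was the highest male for *Slc5a10*, so the apical carriers did not rank the rats alike.

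*Slc5a8* (ENSRNOG00000006367, plus strand of Rnor_6.0 chr7:29435444-29477947) belongs to the same family but carries lactate, pyruvate and other small monocarboxylates with sodium, and not glucose. Its level was 9.44, 14.9, 15.8, 15.3 and 11.4 FPKM in males 1 to 5, and 25.9, 13.8, 15.1, 28.5 and 32.0 FPKM in females 1 to 5. Females 1, 4 and 5 were above every male, and females 2 and 3 were within the range of the males. The means were 13.4 ± 2.80 and 23.1 ± 8.16 FPKM (SD, n = 5 each). The log2 fold change of 0.73 ± 0.25 (SE; 95% confidence interval 0.18 to 1.28) was as large as that of *Slc5a1*, with a wider spread, a limma adjusted p of 0.175 and an exact permutation p of 0.0714. That p was 0.0238 without female 2, 0.0317 without female 3 and between 0.0714 and 0.119 with any other library left out. Relative to the proximal tubule markers the exact permutation p was 0.0397, not adjusted over the carriers.

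RefSeq promoters on the rat build GRCr8 were read for 8 of the 10 carriers, as the 250 bases before the annotated start, written 5′ to 3′ on the strand of the gene. Shown are the carrier that was called between the sexes (*Slc5a1*), the most abundant carrier (*Slc5a2*), and *Slc5a10* and *Slc2a5*, which went together across rats. Capitals mark a stretch that matches the site of HNF1, a transcription factor of the proximal tubule, searched on both strands as GTTAAT, then any base, then ATTAAC, with up to 3 mismatches.
Slc5a1, minus strand of chr14:81843085-81843334: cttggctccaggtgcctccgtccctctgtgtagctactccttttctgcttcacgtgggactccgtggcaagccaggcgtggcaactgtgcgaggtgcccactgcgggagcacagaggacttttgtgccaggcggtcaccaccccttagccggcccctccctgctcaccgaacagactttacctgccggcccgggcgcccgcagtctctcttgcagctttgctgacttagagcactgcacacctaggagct
Slc5a2, plus strand of chr1:192277371-192277620: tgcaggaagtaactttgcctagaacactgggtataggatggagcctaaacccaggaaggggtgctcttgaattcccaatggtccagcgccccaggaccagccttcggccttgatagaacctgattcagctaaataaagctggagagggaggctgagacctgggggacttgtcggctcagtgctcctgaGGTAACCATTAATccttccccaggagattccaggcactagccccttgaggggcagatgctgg
Slc5a10, minus strand of chr10:46898461-46898710: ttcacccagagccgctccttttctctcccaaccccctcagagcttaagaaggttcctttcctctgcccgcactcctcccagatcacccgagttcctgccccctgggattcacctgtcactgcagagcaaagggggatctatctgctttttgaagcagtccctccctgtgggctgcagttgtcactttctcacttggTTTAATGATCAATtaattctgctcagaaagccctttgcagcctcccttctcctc
Slc2a5, plus strand of chr5:165865929-165866178: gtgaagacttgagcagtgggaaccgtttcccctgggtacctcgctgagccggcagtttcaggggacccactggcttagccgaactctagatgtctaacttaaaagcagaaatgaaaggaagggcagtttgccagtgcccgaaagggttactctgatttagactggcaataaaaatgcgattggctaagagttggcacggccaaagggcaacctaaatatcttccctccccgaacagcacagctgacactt

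The HNF1 letters were matched in 2 of the 8 promoters, *Slc5a2* at 62 and *Slc5a10* at 54 bases before the start, each with 3 mismatches, beside 7.74% of 33469 rat promoters of the same length. These were the most and the second most abundant of the 10 carriers by the mean over all libraries. *Slc2a2*, with no match, was close to *Slc5a10* (48.1 and 51.2 FPKM) and was second in males. Whether the letters bear on the level was not tested. The GC box GGGCGG was matched in 1 of the 8, the promoter of *Slc2a1*, where 3 matches lay on the reverse strand at 95, 60 and 35 bases before the start, beside 30.5% of all promoters. The letters TATAAA were matched in 0 of the 8, beside 12.9% of all promoters. The steroid receptor core TGTTCT was matched in the promoters of *Slc5a2* (reverse strand) and *Slc2a2*, beside 17.5% of all promoters, and not in that of *Slc5a1*. These matches describe letters in a window and no binding was measured.

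*Slc2a2* (ENSRNOG00000011875, plus strand of Rnor_6.0 chr2:114413410-114445395) encodes GLUT2, the basolateral exit for glucose in the early proximal tubule. Its level was 53.5, 51.8, 58.0, 47.1 and 43.5 FPKM in males 1 to 5, and 50.6, 30.4, 50.9, 50.8 and 44.5 FPKM in females 1 to 5. Apart from female 2, the lowest of all rats, the females lay within the range of the males. The means were 50.8 ± 5.62 and 45.4 ± 8.81 FPKM (SD, n = 5 each), with a log2 fold change of -0.18 ± 0.15 (SE; 95% confidence interval -0.50 to 0.14), a limma adjusted p of 0.617 and an exact permutation p of 0.317. Without female 2 the log2 fold change was -0.04 and the difference in means -1.60 FPKM.

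*Slc2a1* (ENSRNOG00000007284, plus strand of Rnor_6.0 chr5:138154673-138182897) encodes GLUT1, the widespread basal glucose carrier. Its level was 15.9, 14.3, 15.0, 18.8 and 19.3 FPKM in males 1 to 5 and 16.99, 18.6, 16.9, 17.7 and 17.9 FPKM in females 1 to 5. All 5 females lay within the range of the males, and the coefficient of variation was 13.6% in males and 3.88% in females. The log2 fold change was 0.09 ± 0.09 (SE; 95% confidence interval -0.12 to 0.30; limma adjusted p = 0.703, exact permutation p = 0.349), so the interval left no room for a 2-fold difference in either direction.

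*Slc2a5* (ENSRNOG00000017693, plus strand of Rnor_6.0 chr5:167141875-167174310) encodes GLUT5, a fructose carrier. Its level was 9.56, 9.72, 9.52, 14.4 and 14.6 FPKM in males 1 to 5, and 8.31, 4.15, 6.20, 9.48 and 9.47 FPKM in females 1 to 5. Every male was above every female, but the lowest male (9.52 FPKM) and the highest female (9.48 FPKM) nearly touched, and males 4 and 5 stood apart from the other 3 males. Between 151 and 764 reads per library fell on the gene. The log2 fold change was -0.65 ± 0.24 (SE; 95% confidence interval -1.16 to -0.13), with a limma adjusted p of 0.206 over all genes and an exact permutation p of 0.00794, two-sided. The exact permutation p was 0.0873 without female 2 and 0.0873 without female 3. Relative to the proximal tubule markers the log2 difference was -0.74 (exact permutation p = 0.0397, not adjusted over the carriers).

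*Slc2a9* (ENSRNOG00000005302, plus strand of Rnor_6.0 chr14:77067503-77192702) encodes GLUT9, which carries urate. Its level was 5.85, 7.22, 6.31, 6.44 and 5.52 FPKM in males 1 to 5, and 4.85, 3.002, 5.45, 7.96 and 5.58 FPKM in females 1 to 5. The female values surrounded those of the males, from the lowest of all rats in female 2 to the highest in female 4. The means were 6.27 ± 0.648 and 5.37 ± 1.78 FPKM (SD, n = 5 each; log2 fold change -0.28 ± 0.21 SE, limma adjusted p = 0.573, exact permutation p = 0.325). The exact permutation p was 0.0238 without female 4 and 0.659 without female 2, where the log2 fold change was -0.09. Relative to the proximal tubule markers the log2 difference was -0.37 (exact permutation p = 0.0397, not adjusted over the carriers).

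*Slc2a4* (ENSRNOG00000017226, minus strand of Rnor_6.0 chr10:56552983-56558487) encodes GLUT4, the insulin-responsive carrier of muscle and fat. Its level was low, at 1.37, 1.37, 0.748, 1.07 and 1.94 FPKM in males 1 to 5 and 2.21, 1.45, 1.94, 2.91 and 3.26 FPKM in females 1 to 5. Females 1, 4 and 5 were above every male, and female 3 was level with male 5. With 27 to 130 reads per library, the means were 1.30 ± 0.443 and 2.35 ± 0.733 FPKM (SD, n = 5 each), the log2 fold change was 0.81 ± 0.27 (SE; 95% confidence interval 0.22 to 1.41), the limma adjusted p 0.160 and the exact permutation p 0.0238. Without male 3 the exact permutation p was 0.0556. Of the genes listed for fat and muscle, *Plin1*, *Lep*, *Ckm* and *Acta1* had at most 12, 5, 12 and 27 reads in any library. *Adipoq* and *Cfd*, the other 2 genes of the fat list, were well above 0. Their means went in opposite directions between the sexes, and neither was called. *Adipoq*, which encodes adiponectin, had 3.89 ± 0.574 FPKM for males against 6.75 ± 2.02 FPKM for females (SD, n = 5 each; limma adjusted p = 0.0731). *Cfd*, which encodes adipsin, had 5.47 ± 1.30 against 3.62 ± 1.27 FPKM (SD, n = 5 each; limma adjusted p = 0.264). The part of fat in the *Slc2a4* values was not tested.

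*Slc2a3* (ENSRNOG00000008376, minus strand of Rnor_6.0 chr4:155408233-155631856) encodes GLUT3, best known as the glucose carrier of neurons. It had 1 to 5 reads per library, or 0.0143 to 0.0901 FPKM, beside a floor of 3 reads that came to 0.0370 to 0.0540 FPKM over the 10 libraries. At this depth no difference between the sexes was detectable (exact permutation test, two-sided, p = 0.317), and no fold change is given. *Gdf3* overlaps its span on the same strand with 0 to 6 reads, and *Dppa3* and *Nanog* on the other strand with at most 1 and 2 reads. The highest value, in female 2, stood for 5 reads, and the highest count in a male was also 5 reads.

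**Figure D3:**
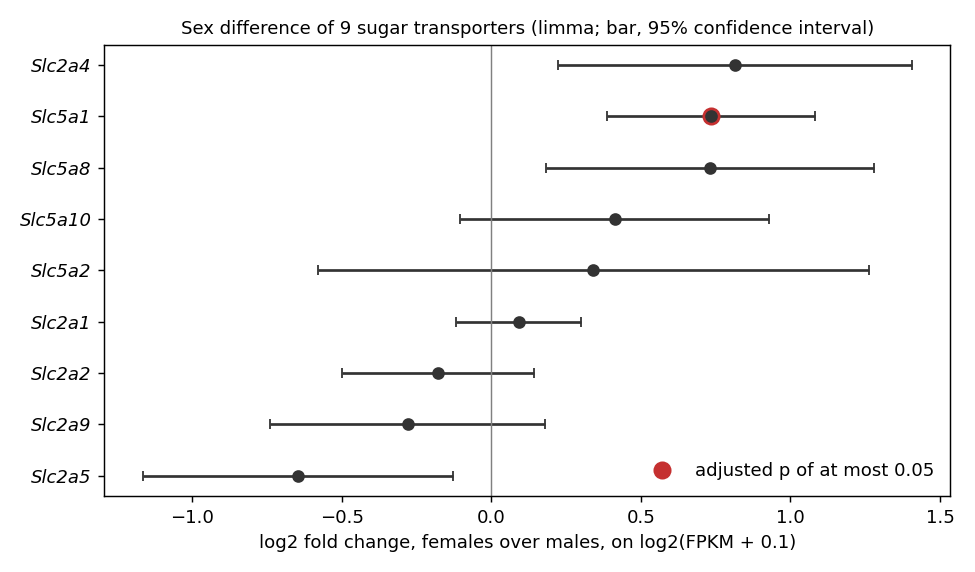
Log2 fold change, females over males, of the 9 carriers tested with limma on log2(FPKM + 0.1), with bars for the 95% confidence interval. The interval of *Slc5a1* (0.39 to 1.08), marked in red, is the one whose adjusted p passes 0.05; those of *Slc2a4*, *Slc5a8* and *Slc2a5* also leave out 0 but their adjusted p does not pass.

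At least 1 gene on the other strand overlaps the spans of *Slc5a2* and *Slc5a10*, and the sources used here do not say whether reads were counted by strand. *RGD1310127*, which overlaps *Slc5a2*, had 8.44 ± 0.997 FPKM in males against 8.53 ± 1.09 FPKM in females, well under the level of *Slc5a2*. *Fam83g*, which overlaps *Slc5a10*, was at 14.4 ± 4.27 and 11.2 ± 2.93 FPKM (limma adjusted p = 0.585), and *Grap*, which overlaps it as well, was at 9.27 ± 1.79 and 9.72 ± 2.01 FPKM (SD, n = 5 each). Neither moved in the direction of *Slc5a10* past the test.

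Ratios of carriers within the same library were compared for 5 pairs fixed by their place or substrate in the proximal tubule, and none passed the test between the sexes. The ratio of *Slc5a2* to *Slc5a1*, of the high-capacity to the high-affinity carrier, was 12.7, 11.6, 11.6, 8.18 and 3.63 in males 1 to 5 and 5.79, 3.50, 10.6, 11.1 and 5.37 in females 1 to 5 (exact permutation test on log2 ratios, two-sided, p = 0.397; adjusted over 5 ratios, 0.496). SGLT2 RNA was thus above SGLT1 RNA in every rat, and the lowest ratio of each sex was again in male 5 and female 2. The ratio of the apical *Slc5a2* to the basolateral *Slc2a2* had a median of 2.61 in males and 3.85 in females (p = 0.198 in the same exact test). *Slc2a2* to *Slc2a1* had medians of 3.37 and 2.86 (exact p = 0.270), and *Slc2a5* to *Slc2a2* had medians of 0.188 and 0.164 (exact p = 0.119). *Slc5a10* to *Slc5a2* had medians of 0.272 and 0.501 (exact p = 0.913), with 1.34 in male 5 alone above 1. Adjusted over the 5 ratios, the exact p ran from 0.450 to 0.913.

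All 36 pairs of the 9 measured carriers were looked at after the values were seen, and the ratio ranges of males and females did not overlap in 10 of them, beside 10.3% of all ratios of a tested gene to 1 of the 9 carriers. Of these 10 pairs, 8 held *Slc5a1* or *Slc2a5*, whose ranges were already apart on their own. Among the 10 was the ratio of the fructose carrier *Slc2a5* to the mannose and fructose carrier *Slc5a10*. It was 0.262, 0.247, 0.267, 0.310 and 0.254 in males 1 to 5, and 0.128, 0.122, 0.138, 0.141 and 0.110 in females 1 to 5. The mean ratio was 0.268 ± 0.0246 in males and 0.128 ± 0.0124 in females (SD, n = 5 each), 2.10-fold lower in females, and no test is given because the pair was chosen for this difference. The log2 difference of this ratio, -1.07, sums the opposite differences of *Slc2a5* and *Slc5a10*. Of the 10 pairs, 5 held *Slc2a5* and 4 held *Slc5a1*, and the log2 differences ran in size from 0.65 (*Slc5a1* over *Slc2a1*) to 1.52 (*Slc2a4* over *Slc2a5*), with *Slc5a1* over *Slc2a5* and *Slc5a8* over *Slc2a5* at 1.39 each. Over the other 17630 genes tested, the ratio to *Slc5a10* had ranges apart in 2.97%, the ratio to *Slc2a5* in 19.0% and the ratio to *Slc5a1* in 40.6%.

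**Figure D4:**
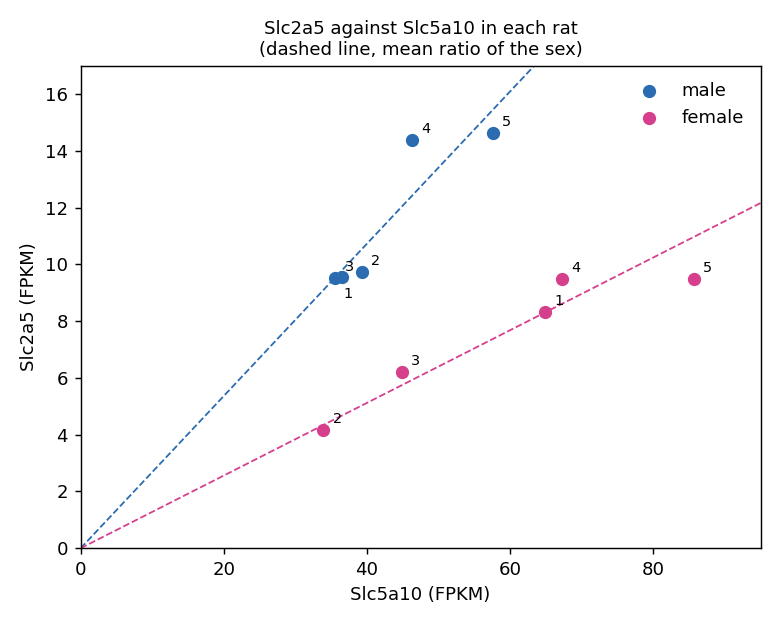
*Slc2a5* against *Slc5a10* in FPKM, with 1 numbered point per rat on linear axes from 0, males in blue and females in pink; each dashed line is the mean ratio of a sex. The males lie along a ratio of 0.268 and the females along 0.128, and females 4 and 5 have nearly the same *Slc2a5* (9.48 and 9.47 FPKM) at different *Slc5a10* (67.2 and 85.7 FPKM).

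How the carriers varied from rat to rat was described with the mean of each sex subtracted, on log2(FPKM + 0.1) over 10 libraries. The points of a pair share a library and its scaling. *Slc5a10* and *Slc2a5* were the closest of the 36 pairs, with a Pearson r of 0.95 and a Spearman rho of 0.88 (exact permutation within sex, p = 0.000208 and 0.00104; adjusted over 36 pairs, 0.0075 and 0.0375), and r was 0.93 without the 2 libraries farthest from the median of *Slc5a10*. By the adjusted p of the same exact permutation test, 5 of the 36 pairs were at or below 0.05 by r and 1 by rho. The others by r were *Slc5a10* with *Slc2a4* (0.81), *Slc5a1* with *Slc5a8* (0.78), *Slc5a2* with *Slc2a9* (0.77) and *Slc2a1* with *Slc2a2* (-0.58). *Slc5a2* with *Slc2a2*, the apical and basolateral glucose carriers of the same cells, had an r of 0.79. It fell to 0.21 without the 2 farthest libraries, so it rested on those rats. In the same way *Slc2a2* with *Slc2a9* fell from 0.77 to 0.15, and *Slc5a2* with *Slc2a1* moved from -0.62 to -0.22. *Slc5a2* with *Slc2a9* was still 0.67. *Slc5a2* with *Slc5a10* had an r of 0.05.

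**Figure D5:**
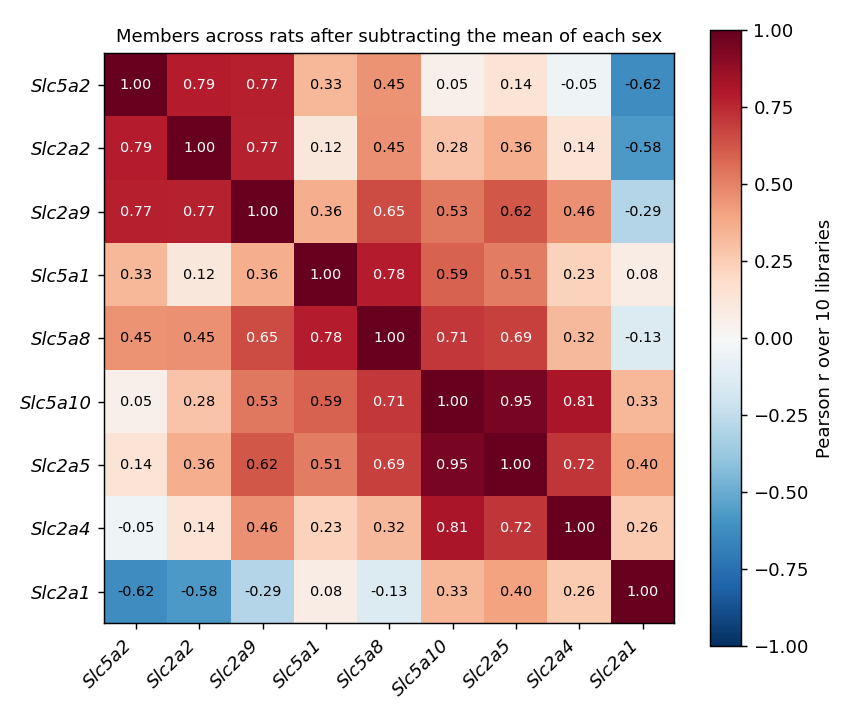
Pearson r between the 9 measured carriers over 10 libraries, after the mean of each sex was subtracted on log2(FPKM + 0.1); red is positive and blue is negative. *Slc5a10* and *Slc2a5* reach 0.95. *Slc5a2*, *Slc2a2* and *Slc2a9* are between 0.77 and 0.79 with each other, and *Slc2a1* is negative with *Slc5a2* (-0.62) and *Slc2a2* (-0.58). Without the 2 libraries farthest from the median of the first-named gene, *Slc5a2* with *Slc2a2* falls to 0.21 and *Slc2a2* with *Slc2a9* to 0.15. *Slc5a2* with *Slc2a1* is then -0.22, while *Slc5a2* with *Slc2a9* is 0.67 and *Slc2a1* with *Slc2a2* is -0.52.

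The genes whose pattern was most like that of *Slc5a1*, after the mean of each sex was subtracted, were taken from 13363 genes that averaged 1 FPKM or more over the 10 libraries. *Zfp93*, a zinc finger gene, had a Pearson r of 0.97 and a Spearman rho of 0.95. Its sex difference was the opposite of that of *Slc5a1*, with 5.91 ± 0.652 FPKM in males and 2.90 ± 0.623 FPKM in females (SD, n = 5 each; limma adjusted p = 0.00351). *Tex40* (r 0.92, rho 0.88) and *Rnf19a* (r 0.88, rho 0.79) came next. These are descriptions, and the highest of so many r values carry no test.

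The other genes of sugar handling were followed in 6 lists of 54 genes, of which 50 were found by symbol and 44 entries were high enough to test, *G6pc* counting as 2 because it has 2 identifiers. Of these, 0 were called higher and 1 lower in females (2.27%, beside 2.40% of all genes), 7 had an unadjusted limma p under 0.05 (15.7% of all genes did), and the tested list genes' median log2 fold change was -0.00. The gene called was *Tbc1d1*, a regulator of GLUT4 traffic in muscle, which fell from 13.8 ± 1.22 to 10.5 ± 0.595 FPKM (SD, n = 5 each; log2 fold change -0.38 ± 0.08 SE, limma adjusted p = 0.0367). With 1 library left out, 9 of 10 fits called 0 of the list genes lower.

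In the rest of the Slc5 family 4 of 8 listed genes were high enough to test and 0 were called. The highest was *Slc5a12*, a lactate carrier, with 68.5 ± 33.5 FPKM in males against 69.1 ± 25.4 FPKM in females (SD, n = 5 each; limma adjusted p = 0.913). Outside the naming rule, *Slc5a9*, a sodium-coupled sugar carrier, was at 6.76 ± 1.14 and 4.81 ± 0.909 FPKM (SD, n = 5 each, limma adjusted p = 0.162, exact permutation p = 0.0238). It was not called. Its mean was lower in females, where the means of the 4 Slc5 members were higher. *Slc5a4*, *Slc5a4b* and *Slc5a7* had 0 reads in all 10 libraries. In the rest of the Slc2 family 5 of 6 genes were tested and 0 were called, and the highest was *Slc2a8*, at 7.82 ± 1.37 and 7.37 ± 1.05 FPKM. Also outside the rule, *Slc2a13*, a myo-inositol carrier, was at 2.69 ± 0.297 and 3.47 ± 0.260 FPKM (SD, n = 5 each; exact permutation p = 0.00794, limma adjusted p = 0.142). Both were named after their values were seen.

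Genes that phosphorylate or release glucose gave 0 calls of 7 tested. The highest by the mean over all libraries was *G6pc*, whose product frees glucose from its phosphate. It had 115 ± 33.6 FPKM in males against 122 ± 36.7 FPKM in females (SD, n = 5 each), and the table lists this symbol under 2 identifiers. In males another gene of this list was level with it, at 115 FPKM. The fructose and polyol enzymes, which use what GLUT5 and SGLT5 can bring in, gave 0 calls of 6. Regulators of sugar transporters gave 1 call of 16, the one of *Tbc1d1*, and were led by *Slc9a3r1*, a brush border scaffold, at 357 ± 40.7 and 413 ± 69.6 FPKM. The urate carriers beside *Slc2a9* gave 0 calls of 6. By the mean over all libraries they were led by *Slc22a8*, an organic anion carrier, at 249 ± 79.3 and 336 ± 76.9 FPKM (SD, n = 5 each). In males another gene of this list had a higher mean, 294 FPKM.

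Markers of other cells of the kidney also stood beside these values. Of 15 marker lists, 13 had no gene called. The 4 genes of intercalated cells had sums that did not overlap, in the same direction as *Slc5a1*. They were 104 to 171 FPKM in males and 176 to 276 FPKM for females. The sums of the other marker lists overlapped. All 4 intercalated cell genes had an unadjusted limma p under 0.05, beside 15.7% of all genes. So had all 4 fibroblast genes, in the other direction. Their median log2 fold change was -0.84, against 0.64 for the intercalated cells. This median was above 0 in every list but those of fibroblasts, macrophages (-0.43), lymphocytes (-0.96) and injured tubules (-1.08). It was 0.42 for the distal convoluted tubule, 0.36 for principal cells and 0.35 for the thick ascending limb. The fibroblast genes had a sum of 170 to 243 FPKM in males, against 52.8 to 182 FPKM for females, and the 4 genes of injured tubules 78.3 to 196 FPKM, against 13.5 to 119 FPKM. Red cell genes ran from 79.6 to 429 FPKM in males, and in females from 48.0 to 456 FPKM. The part of these cells in the differences of the carriers was not tested.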

How the data were processed

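Poly(A) RNA of 10 kidneys was sequenced by Novogene, and the submitters' processing notes name fastp, HISAT2 2.0.5, StringTie 1.3.3b and featureCounts 1.5.0-p3. The authors deposited 1 table of FPKM on Rnor_6.0 with the gene length, and whether reads were counted by strand is not given in the sources used here. Multiplied by length and scaled, 100% of the values came out as whole reads (tolerance 0.001 of a read), which gave depths and a floor of 3 reads.

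Sex was taken from the sample labels. limma 3.58.1 (R 4.3.3, eBayes with trend, Benjamini-Hochberg) was fitted over the 17631 genes that averaged 0.1 FPKM or more, on log2(FPKM + 0.1), a scale that understates the change of low genes. Single genes and ratios had exact permutation tests, two-sided (Python 3.11.15, numpy 2.4.6, pandas 2.3.3, scipy 1.17.1). Both procedures were first tested on simulated data.

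The members and lists were chosen with earlier results of these data known. The text names all 10 members, the called genes and the highest gene of each pathway list, and the 3 genes most like a called member, except that the highest gene of 1 list is not reported here. Genes that overlap a member and single marker genes were named after their values were seen. Alternatives were other pseudocounts, filters, scalings and eBayes settings, the replicate number as a block, leaving out each library and, added after the data were seen, limma-voom on recovered reads and leaving out male 5 and female 2 together. *Slc5a3*, *Slc5a4a*, *Hkdc1* and *G6pc1* were not matched by symbol.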

Additional observations from a re-analysis of the deposited data

Results flagged for a closer look

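Of the 20 groups formed by 10 carriers and both sexes, 2 had a rat far from the other 4, where the gap to the nearest rat divided by the range of the group was above 0.710. Chance gives about 1 in 20 such groups. *Slc5a1* in female 5, at 31.85 FPKM, had a gap of 0.775 of the range, and the other 4 females were at 18.3 to 21.4 FPKM, still above every male. *Slc2a3* in female 2, at 0.09006 FPKM, had a gap of 0.768 of the range, and that value stands for 5 reads.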

How the results depend on the processing

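The number of carriers called by limma's adjusted p, 1 as reported, was 0 with eBayes without trend, 0 after scaling by total reads and 0 with the replicate block (adjusted p of *Slc5a1* 0.0624, 0.0621 and 0.103), and 0 to 1 with 1 library left out. Its log2 fold change was 0.59 to 0.79 when each library was left out, and 0.64 to 0.74 under the other settings. With the 2-fold limit the count was 0 under every setting run. The count of list genes called lower, 1 as reported, was 0 with eBayes without trend, 0 with the replicate block and 0 to 1 with 1 library left out. Over all genes, 223 were called higher and 201 lower. With the replicate block these were 119 and 112, with 1 library left out 140 to 284 and 124 to 266, and after scaling by total reads 170 and 235, which moved the share called higher from 52.6% to 42.0% and the median of all genes to -0.08 on the log2 scale. limma-voom on recovered reads, added after the data were seen, gave 247 and 260 and an adjusted p of 0.0232 for *Slc5a1*. Leaving out male 5 and female 2 together, also added then, kept the direction of the difference in means for all 10 carriers. The replicate numbers did not pair the rats: the correlations of same-numbered deviations were -0.0637, -0.0975, 0.0708, 0.0400 and -0.0158, and 1 of 5 matched its own number best. The log2 fold change of *Slc5a2* was -0.0035 without male 5 and -0.0035 to 0.63 with any 1 library left out. The log2 ratio of *Slc5a10* to *Slc5a2*, 0.0719 as reported, was -0.128 to 0.527 with 1 library left out. It was negative in 6 of these fits, at -0.0470, -0.0631, -0.128, -0.0638, -0.0314 and -0.0119, and had an exact p of at least 0.159 in all of them. The other 4 ratios kept their direction and missed the threshold with any 1 library left out. The causes of these changes were not tested. The negative binomial count models that were planned were not run, and limma-voom on the recovered reads took their place. Depth limited *Slc2a3* (1 to 5 reads) and *Slc2a4* (27 to 130 reads).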
